A study of Mus musculus with 16 samples.

Results

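The mRNAs of 10 genes of the extracellular matrix were followed across the polysome gradient of mouse hepatocytes with and without a knockdown of eIF6. They were the small leucine-rich proteoglycans Dcn (decorin), Bgn (biglycan), Lum (lumican) and Fmod (fibromodulin), the adhesive glycoprotein Fn1 (fibronectin), and the matricellular proteins Sparc, Postn (periostin), Thbs1 (thrombospondin 1), Ctgf and Cyr61. A gene was a member when the gene name in the scanner files equalled its symbol, which took 10 of the 30214 gene names on the array. All 10 had a probe, and 9 of them had a probe that passed the filter on dim signal, so 9 were among the 19364 genes tested. Lum did not pass.

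The cells were AML12, a male, non-tumourigenic line of mouse hepatocytes. All carried a doxycycline-inducible shRNA, either a scramble sequence or, per the study's methods, one against eIF6 (the labels say only shrna), and all received doxycycline. All groups then had insulin for 1 h, at 100 nM in the sample descriptions and 100 mM in the treatment protocol, and the data hold no cells without insulin. RNA from sucrose gradients was pooled into a subpolysomal and a polysomal fraction, which gave 4 groups of 4 single-colour Agilent arrays: scramble subpolysomal, scramble polysomal, eIF6 shRNA subpolysomal and eIF6 shRNA polysomal. The shRNA was carried by lentiviral vectors in puromycin-selected cells of a single line, so the replicates are cultures and not animals, and the labels do not say whether arrays with the same replicate number came from the same gradient.

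Small leucine-rich proteoglycans are secreted proteins with a short core of leucine-rich repeats, most of which carry glycosaminoglycan chains. They bind collagen fibrils and growth factors. Fibronectin forms fibrils that cells grip through integrins. Matricellular proteins are secreted into the same space but act mainly by modulating how cells and growth factors meet the matrix, and Ctgf and Cyr61 are immediate targets of the YAP and TEAD transcription complex. In liver several of these genes, Fn1 apart, are known mostly from activated stellate cells and fibroblasts, although cultured hepatocyte lines also make some of them. An mRNA under active translation carries several ribosomes and sediments with the polysomes. The protein eIF6 binds the large ribosomal subunit and keeps it from joining the small one too early.

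Values are log2 intensities, quantile normalized over the 16 arrays and averaged over the kept probes of a gene. Subtracting scramble from eIF6 shRNA gave a polysomal change in polysomal RNA and a subpolysomal change in subpolysomal RNA, and the first minus the second is the change in translational efficiency. Adjusted p is that of limma after Benjamini-Hochberg correction over the genes tested, and calls were made under 0.05. Between 20175 and 24950 of 39429 probes were well above background on an array, and no spot was saturated. Subpolysomal array 2 of eIF6 shRNA cells stood apart with the 24950, against 20175 to 21481 on the other 3 arrays of its group. Eif6 itself changed by -1.05 on polysomes (standard error 0.079, adjusted p = 1.45e-07) and by 0.015 in subpolysomes (adjusted p = 0.917), so the knockdown was seen in polysomal RNA.

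Most of the matrix genes were lower on polysomes of eIF6 shRNA cells. Postn passed the filter through scramble polysomal RNA alone, so it had to be lower in the other groups, and it is described apart. Of the other 8 members tested, 6 were called lower (Thbs1, Sparc, Dcn, Bgn, Fmod and Fn1) and 0 higher, with a median change of -1.33. Over all genes, 10.7% were called lower and 11.1% higher, with a median of 0.016. In subpolysomes 3 of the 8 were called lower (Thbs1, Fn1 and Cyr61) and 0 higher, with a median of -0.47, where 12.3% of all genes were lower and 11.8% higher with a median of 0.025. In some members signal fell in both fractions (Thbs1, Fn1), and in others it fell on polysomes with no subpolysomal call (Bgn, Dcn, Sparc). Ctgf and Cyr61 were not called on polysomes.

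**Figure D1:**
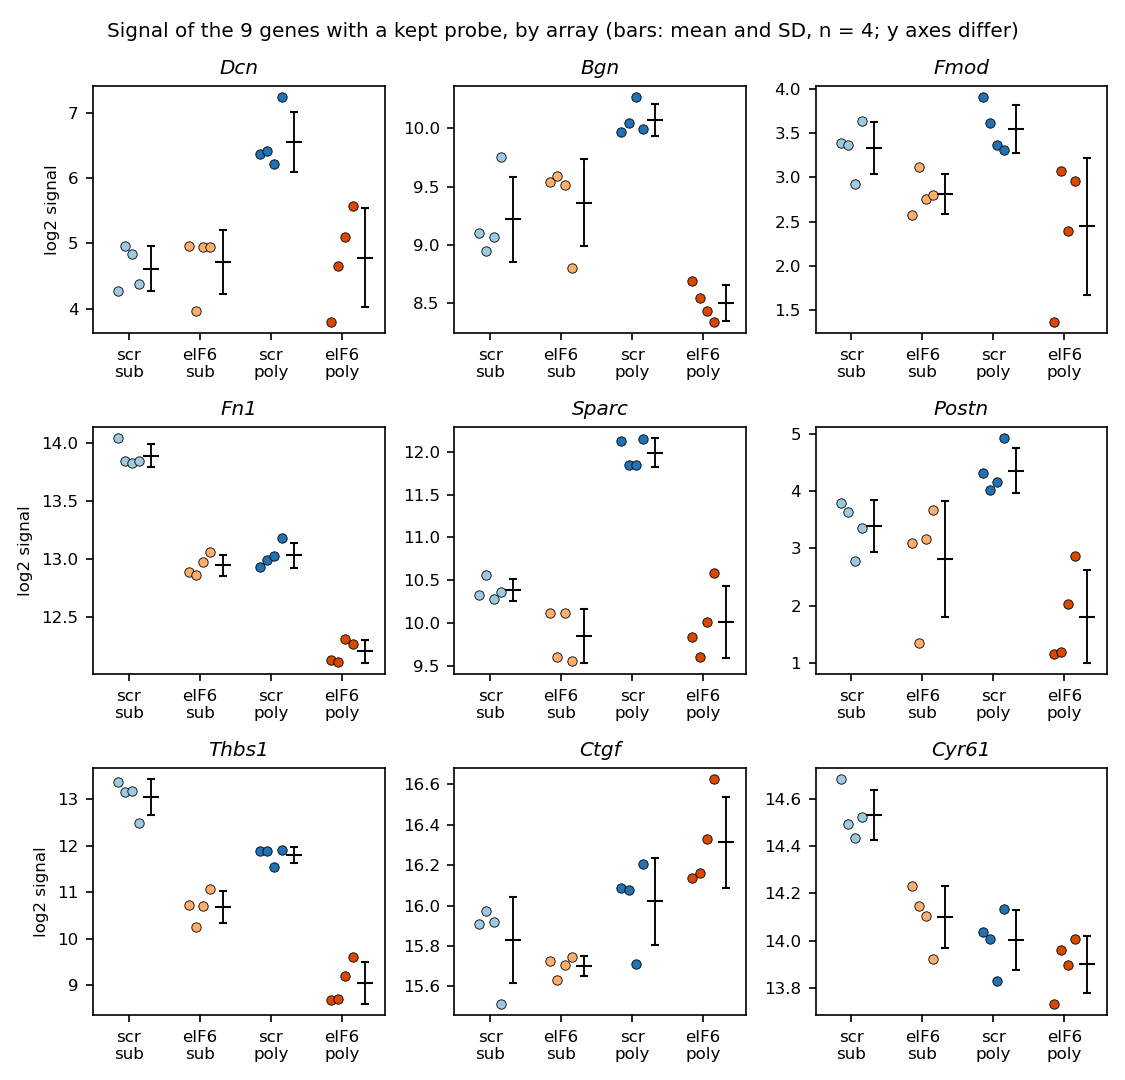
Log2 signal of the 9 members with a kept probe on each of 16 arrays (points), with the mean and SD of each group of 4 (bars); scr is scramble, eIF6 is eIF6 shRNA, sub is subpolysomal and poly is polysomal RNA, and the y axes differ between genes. In Bgn, Dcn, Sparc, Fn1, Thbs1 and Fmod every eIF6 shRNA polysomal array lay below every scramble polysomal array. The same held in Postn, which was not well above background in 3 of 4 groups.

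Several markers of fibroblasts or hepatic stellate cells, but not all, were also lower on polysomes. Of 12 markers of fibroblasts or hepatic stellate cells, 8 were tested. On polysomes Pdgfrb, Thy1, Acta2 and Des were called lower and Ngfr higher, while Vim was not called (-0.38, adjusted p = 0.314). Counted with Pdgfra, described next, 5 of the 8 were lower. Counts of markers here stand beside 10.7% of all genes called lower and 11.1% higher on polysomes. The median of the 8 was -1.92, or -2.45 without Hand2, which passed the filter through scramble polysomal RNA alone and was not called. Pdgfra was well above background on all scramble arrays but on 0 eIF6 shRNA arrays of either fraction, so it passed through scramble cells alone. Its fall is a description with no test, at least 7.1-fold on polysomes. Both medians and the summed signal include its reading, which was not well above background in eIF6 shRNA cells. The summed signal of the 8 was 82510 to 120600 on scramble polysomal arrays and 21090 to 30610 on eIF6 shRNA polysomal arrays, and 44490 to 49320 against 28530 to 36010 on subpolysomal arrays. The stellate cell markers Lrat, Reln and Rgs5 were well above background on 0 of 16 arrays. In 13 tested hepatocyte markers of 14, 0 were lower and 3 higher on polysomes (Afp, Ttr and Tat), and the summed signal was 339100 to 514300 in scramble and 373900 to 523500 in eIF6 shRNA cells. Hnf4a, Ttr, Trf, Krt8 and Krt18 were well above background on all 16 arrays, but Fgb was on none, Apoa1 on 2 and Alb on 7, so the hepatocyte label held for some defining markers and not for these. Of the other lists, 0 of 5 tested cholangiocyte markers were called on polysomes, 1 of 3 endothelial markers was higher (Vwf), and 1 of 6 immune markers was lower (Csf1r, -1.67). Cdh5, Lyve1, Stab2 and Tek of endothelium and Lyz2 of macrophages were well above background on 0 of 16 arrays. The part of the fibroblast markers in the results on the matrix genes was not tested, and fewer cells of a type and less RNA per cell cannot be told apart in such samples.

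The sequences just before the start sites are given for Bgn and Sparc, the pair called lower in translational efficiency in the main processing. Both of those calls were lost in several alternatives, as given below. A sequence is also given for Cyr61, which was not called on polysomes. In the list of RefSeq start sites used here (build GRCm38.p6) 5 of the 10 members had an entry, Bgn, Fmod, Sparc, Postn and Cyr61 (there Ccn1). Dcn, Lum, Fn1, Thbs1 and Ctgf had a RefSeq name but no start site in that list. Each line gives the 250 bases before the start, 5′ to 3′ on the strand of the gene, for Bgn at chrX:73483351-73483600 (plus strand), Sparc at chr11:55420081-55420330 (minus strand) and Cyr61 at chr3:145649986-145650235 (minus strand). Capitals mark matches on either strand to the TATA box TATAAA, the TEAD core CATTCC or the GC box GGGCGG, and adjoining matches run together.
Bgn: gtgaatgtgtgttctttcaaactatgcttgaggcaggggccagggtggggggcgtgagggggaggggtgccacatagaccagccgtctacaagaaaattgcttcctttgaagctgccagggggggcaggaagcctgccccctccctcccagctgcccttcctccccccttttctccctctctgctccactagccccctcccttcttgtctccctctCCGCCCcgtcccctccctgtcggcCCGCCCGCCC
Sparc: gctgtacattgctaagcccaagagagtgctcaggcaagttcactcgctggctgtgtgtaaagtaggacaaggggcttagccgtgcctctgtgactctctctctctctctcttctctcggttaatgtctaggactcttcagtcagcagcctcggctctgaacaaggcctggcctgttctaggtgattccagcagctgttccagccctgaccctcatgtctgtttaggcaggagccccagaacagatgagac
Cyr61: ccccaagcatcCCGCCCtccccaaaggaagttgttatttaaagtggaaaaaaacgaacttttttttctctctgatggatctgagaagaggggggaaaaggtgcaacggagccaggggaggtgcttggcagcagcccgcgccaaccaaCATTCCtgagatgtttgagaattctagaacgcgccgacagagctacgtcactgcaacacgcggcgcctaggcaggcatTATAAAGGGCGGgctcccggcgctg

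The Cyr61 window held all 3 motifs. Its TATAAA began 25 bases before the start, with a GGGCGG adjoining it, its CATTCC began 103 bases before the start, and a CCGCCC lay 239 bases before it. The Bgn window held 3 copies of CCGCCC, the reverse complement of the GC box, beginning 34, 10 and 6 bases before the start, the last pair overlapping, and no match to the other motifs. The Sparc window held no match to any of the 3. Among the 32851 start sites listed, which leave out some genes, 12.4% had TATAAA, 12.6% CATTCC and 32.7% GGGCGG in such a window on either strand. The GC content of the first 50 transcribed bases was 60.0% in Bgn, 62.0% in Sparc and 68.0% in Cyr61, against a median of 56.0% over the same start sites. These are descriptions of the letters only.

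Biglycan carries chondroitin or dermatan sulfate chains and binds collagen. Its probe lay on chromosome X of mm9, positions 70738554 to 70738613, plus strand, and was well above background on all 16 arrays. On polysomes Bgn read 9.97, 10.05, 10.27 and 9.99 in scramble cells and 8.69, 8.54, 8.43 and 8.34 in eIF6 shRNA cells. The 2 sets were more than 1 log2 unit apart at their nearest arrays. In subpolysomes it read 9.10, 8.95, 9.07 and 9.75 in scramble cells and 9.54, 9.59, 9.52 and 8.80 in eIF6 shRNA cells, which overlapped. Bgn changed by -1.57 on polysomes (standard error 0.19, adjusted p = 1.87e-05), a 2.96-fold decrease, and the subpolysomal change was 0.14 (95% interval -0.26 to 0.55, adjusted p = 0.636). Translational efficiency fell by 1.71 (standard error 0.27, adjusted p = 0.00383), at percentile 0.612 of all genes.

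Decorin is the closest relative of biglycan and a ligand of collagen and of TGF-beta. It was measured by a probe on chromosome 10 (mm9, 96980233 to 96980292, plus strand), which was well above background on 3 of 4 scramble subpolysomal arrays and on all other arrays. Scramble polysomal arrays read 6.37, 6.41, 6.21 and 7.23 and eIF6 shRNA polysomal arrays 3.80, 4.66, 5.10 and 5.57. The subpolysomal readings were 4.27, 4.96, 4.84 and 4.37 in scramble cells and 4.97, 3.97, 4.95 and 4.95 in eIF6 shRNA cells. Polysomal signal was thus separate between the cells and subpolysomal signal was not. Dcn changed by -1.77 on polysomes (standard error 0.35, adjusted p = 0.00161), a 3.42-fold decrease, and the subpolysomal change was 0.096 (95% interval -0.65 to 0.84, adjusted p = 0.88). With normexp background correction the polysomal change of Dcn was smaller, at -0.75 (adjusted p = 0.000436). The change in translational efficiency was -1.87 (standard error 0.49) and missed the threshold (adjusted p = 0.0838). It passed when subpolysomal array 2 of eIF6 shRNA cells was left out (-2.16, adjusted p = 0.0452) and with normexp, at a smaller value (-0.76, adjusted p = 0.0379).

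Fibromodulin and lumican, which also bind fibrillar collagen, were at the limit of the measurement. The Lum probe (chromosome 10 of mm9, 97035210 to 97035269, plus strand) was well above background on 0 of 16 arrays, with log2 readings from 0.59 to 1.41, and gave no comparison. The Fmod probe (chromosome 1, 135943998 to 135944057, plus strand) was well above background on 2, 4, 1 and 2 of 4 arrays in scramble subpolysomal, scramble polysomal, eIF6 shRNA subpolysomal and eIF6 shRNA polysomal RNA. It read 3.90, 3.61, 3.36 and 3.31 on scramble and 1.37, 3.07, 2.39 and 2.95 on eIF6 shRNA polysomal arrays, a change of -1.10 (standard error 0.30, adjusted p = 0.0144). Array 1 of the eIF6 shRNA cells was far below the rest. Without replicate 1 the change was -0.60 and the call was lost (adjusted p = 0.0926), and it was lost without replicate 3 as well (-1.17, adjusted p = 0.066).

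Fibronectin fell by about the same amount in both fractions. Its probe was on chromosome 1 of mm9 (71632116 to 71632175, minus strand). Scramble polysomal arrays read 12.93, 12.99, 13.02 and 13.18, against 12.12, 12.11, 12.31 and 12.27 in eIF6 shRNA cells. In subpolysomes the readings were 14.04, 13.85, 13.83 and 13.84 against 12.88, 12.86, 12.97 and 13.06. Neither fraction showed overlap between the cells. Fn1 changed by -0.83 on polysomes (standard error 0.084, adjusted p = 3.51e-06) and by -0.95 in subpolysomes (standard error 0.084, adjusted p = 1.33e-06), 1.77-fold and 1.93-fold decreases. The change in translational efficiency was 0.12, with a 95% interval from -0.14 to 0.37 (adjusted p = 0.758). Scaled to the spike-in probes, Fn1 had values of -1.27 on polysomes and -1.18 in subpolysomes and no call (adjusted p = 0.15 and 0.371).

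Sparc binds collagen and, as its name says, is acidic and rich in cysteine. It was measured by a pair of probes on chromosome 11 of mm9, minus strand, at 55208003 to 55208061 and at 55208939 to 55208998, both well above background on all arrays. The probe at 55208003 was far dimmer, with mean log2 signals of 6.46 on scramble and 4.23 on eIF6 shRNA polysomal arrays. The probe at 55208939 had means of 17.53 and 15.79 there, so the averaged readings match neither probe. Averaged over the pair, scramble polysomal arrays read 12.13, 11.85, 11.85 and 12.15 and eIF6 shRNA polysomal arrays 9.84, 9.60, 10.01 and 10.59. Subpolysomal arrays read 10.33, 10.57, 10.28 and 10.36 in scramble cells and 10.12, 9.60, 10.12 and 9.55 in eIF6 shRNA cells. The cells were separate in both fractions, by a wide margin on polysomes and a narrow one in subpolysomes. Sparc changed by -1.98 on polysomes (standard error 0.19, adjusted p = 1.93e-06), a 3.96-fold decrease that was -1.31 with normexp, and the subpolysomal change of -0.54 lay at the threshold (standard error 0.19, adjusted p = 0.0546). Translational efficiency fell by 1.45 (standard error 0.27, adjusted p = 0.0123).

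The pair of Sparc probes differed in the subpolysomal call. The probe at 55208003 changed by -2.23 on polysomes and by -0.83 in subpolysomes (adjusted p = 6.14e-06 and 0.0206 from limma on probes), and its change in translational efficiency of -1.40 missed the threshold (adjusted p = 0.0634). The probe at 55208939 changed by -1.73 and -0.24 (adjusted p = 8.74e-06 and 0.411) and by -1.49 in translational efficiency (adjusted p = 0.0118). Both fell on polysomes and by similar amounts in translational efficiency. Whether the probes read different transcripts was not tested.

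Periostin, a matricellular ligand of integrins, was seen on scramble polysomes alone. Its probe (chromosome 3 of mm9, 54194840 to 54194899, plus strand) was well above background on all 4 scramble polysomal arrays and on 0 of the other 12. Scramble polysomal arrays read 4.32, 4.03, 4.17 and 4.93, and eIF6 shRNA polysomal arrays read 1.16, 1.19, 2.02 and 2.86, not well above background. Its signal was therefore at least 2.95-fold lower on polysomes of eIF6 shRNA cells in the main processing. Since the probe passed the filter through the scramble polysomal arrays alone, this is a description, with no test. With normexp background correction the polysomal change read -0.31, a smaller fall than this bound. The bound sets the mean of the bright arrays against the higher of the dim reading and the lowest signal well above background on each dim array. In scramble cells its polysomal signal was at least 1.7-fold the subpolysomal one. No fold is given for the other comparisons of Postn, where neither side was well above background.

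Thrombospondin 1, which binds CD47 and CD36 and activates latent TGF-beta, was lower in both fractions of eIF6 shRNA cells. Its probe was on chromosome 2 of mm9 (117952585 to 117952644, plus strand). On polysomes it read 11.87, 11.89, 11.53 and 11.90 in scramble cells and 8.68, 8.69, 9.20 and 9.60 in eIF6 shRNA cells. In subpolysomes it read 13.36, 13.16, 13.17 and 12.49 against 10.73, 10.24, 10.69 and 11.07. No eIF6 shRNA array reached a scramble array of the same fraction. Thbs1 changed by -2.75 on polysomes (standard error 0.23, adjusted p = 5.19e-07) and by -2.36 in subpolysomes (standard error 0.23, adjusted p = 3.51e-06), decreases of 6.75-fold and 5.13-fold. Translational efficiency changed by -0.39 with a 95% interval from -1.10 to 0.31 (adjusted p = 0.694).

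The CCN proteins Ctgf and Cyr61, cysteine-rich ligands of integrins and heparan sulfate, were not called on polysomes. Ctgf (chromosome 10 of mm9, 24318281 to 24318340, plus strand) read 16.09, 16.08, 15.71 and 16.21 on scramble polysomes and 16.13, 16.16, 16.33 and 16.63 on eIF6 shRNA polysomes, which overlapped. Its polysomal change was 0.29 (95% interval 0.0049 to 0.58, adjusted p = 0.151) and its subpolysomal change -0.13 (95% interval -0.41 to 0.16, adjusted p = 0.551). The polysomal change turned to -0.21 when arrays were scaled to the spike-in probes (adjusted p = 0.797), and the subpolysomal one to 0.084 with the 75th percentile (adjusted p = 0.666).

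Cyr61 (chromosome 3 of mm9, 145310187 to 145310246, minus strand) is the member whose TATA box and TEAD core are printed above. On polysomes it read 14.04, 14.01, 13.83 and 14.13 in scramble cells and 13.73, 13.96, 13.90 and 14.01 in eIF6 shRNA cells, a change of -0.10 (95% interval -0.31 to 0.10, adjusted p = 0.538). In subpolysomes the readings were 14.68, 14.49, 14.43 and 14.52 against 14.23, 14.15, 14.10 and 13.92, which did not overlap. The subpolysomal change was -0.43 (standard error 0.095, adjusted p = 0.00403), a 1.35-fold decrease, which was not called after scaling to the spike-in probes (-0.64, adjusted p = 0.999).

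Setting both fractions against each other tests whether a change was unequal between them. The change in translational efficiency was called lower for 2 members, Bgn and Sparc, and higher for 0, where 1.11% of all genes were lower and 0.403% higher. Both calls were lost after scaling to the spike-in probes (-1.97 for Bgn and -1.69 for Sparc, adjusted p = 0.653 and 1). An ordinary t-test on ratios by replicate number lost them as well after Benjamini-Hochberg correction (adjusted p = 0.0739 and 0.161). At an unadjusted p under 0.05 from limma, 3 of the 8 members other than Postn were lower (Bgn, Sparc and Dcn) and 2 higher (Ctgf, 0.42, and Cyr61, 0.33), where 7.34% of all genes were lower and 5.16% higher. The median over the 8 was -0.49, and over all genes 0.017. They were also lost when replicate number 1, 2 or 3 was left out of every group, with adjusted p from 0.0771 to 0.123 for Bgn and from 0.0545 to 0.232 for Sparc. Without subpolysomal array 2 of eIF6 shRNA cells, which stood apart, Dcn was called lower too. With a single array left out in turn, the calls of Bgn and Sparc held, and the change of Bgn stayed between -2.04 and -1.52 and that of Sparc between -1.69 and -1.24 over all these settings.

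Among the 8 fibroblast markers tested, 2 were also called lower in translational efficiency, beside 1.11% of all genes. These were Acta2 at -1.87 and Thy1 at -0.91 (adjusted p = 0.000312 and 0.00388), and their part in the values of Bgn and Sparc was not tested.

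**Figure D2:**
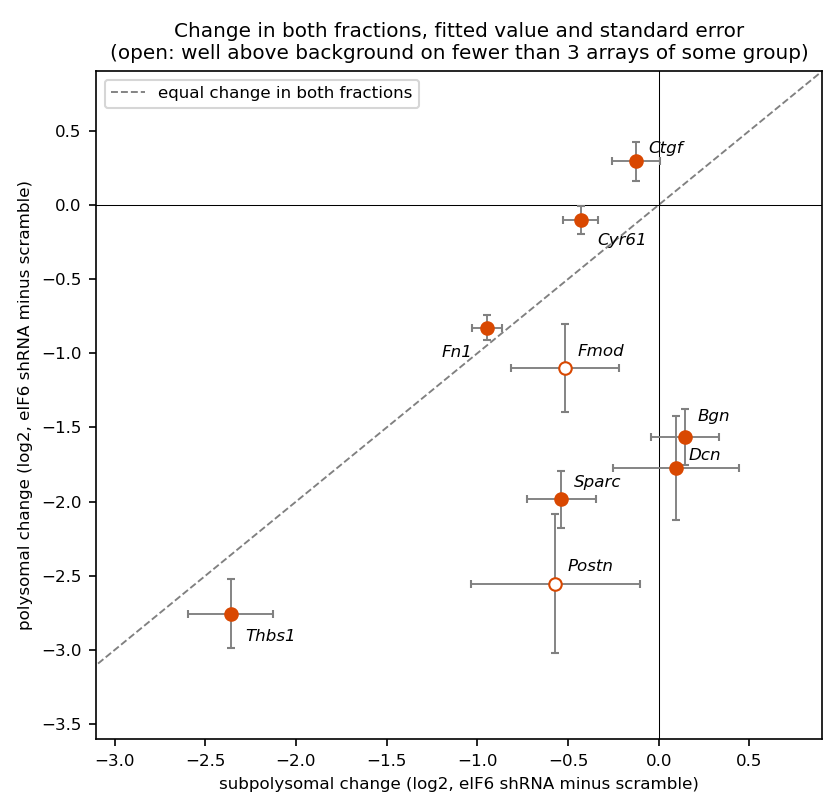
Polysomal change against subpolysomal change (log2, eIF6 shRNA minus scramble) of the 9 members, with standard errors; the dashed line marks equal change, and open points were well above background on fewer than 3 arrays of some group. Thbs1 and Fn1 lie near the line at -2.36 and -2.75 and at -0.95 and -0.83, while Bgn, Dcn and Sparc lie below it with subpolysomal changes of 0.14, 0.096 and -0.54.

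Each of the 4 slides held 1 array of every group, so the changes could also be read within a slide. The polysomal change of Bgn was between -1.63 and -1.45 within slides, that of Sparc between -2.55 and -1.54, that of Dcn between -2.58 and -0.80, that of Fn1 between -1.07 and -0.66 and that of Thbs1 between -3.21 and -2.28. All were below 0 on 4 of 4 slides. Translational efficiency of Bgn (-2.22 to -1.32), Sparc (-2.39 to -1.06) and Dcn (-2.68 to -0.80) was also below 0 on all 4 slides. With the slide in the model, Dcn passed the threshold in translational efficiency (adjusted p = 0.0281) and Sparc in subpolysomes (adjusted p = 0.0244).

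The members also differed in where their mRNA lay on the gradient, as polysomal minus subpolysomal signal. These values are relative to the median gene, since the normalization sets both fractions to the same distribution. In scramble cells Dcn (1.94), Sparc (1.61) and Bgn (0.85) were called higher on polysomes (adjusted p = 0.000213, 3.98e-06 and 0.00121), also after scaling to the 75th percentile or the spike-in probes. Thbs1 (-1.25), Fn1 (-0.86) and Cyr61 (-0.53) were called lower (adjusted p = 3e-04, 5.74e-07 and 0.000212), but turned to 0.71, 1.08 and 1.35 with spike-in scaling. The 3 called higher and the 3 called lower stand beside 31.7% and 28.4% of all genes.

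In eIF6 shRNA cells the order was different. Dcn (0.074, adjusted p = 0.869) and Sparc (0.16, adjusted p = 0.484) were not called, and both turned below 0 with the 75th percentile (-0.79 and -0.61). Bgn was called lower on polysomes at -0.86 (adjusted p = 0.00111), the opposite of scramble cells, but turned to 0.65 with spike-in scaling. Fn1 (-0.74, adjusted p = 2.8e-06; 0.995 with spike-in scaling) and Thbs1 (-1.64, adjusted p = 2.44e-05; -0.066 with spike-in scaling) were again called lower. Ctgf was called higher at 0.61 (adjusted p = 0.00114) and turned to -0.24 with the 75th percentile. These 3 lower and 1 higher stand beside 28.7% and 32.1% of all genes, and the difference between the cells is the test of translational efficiency given above.

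**Figure D3:**
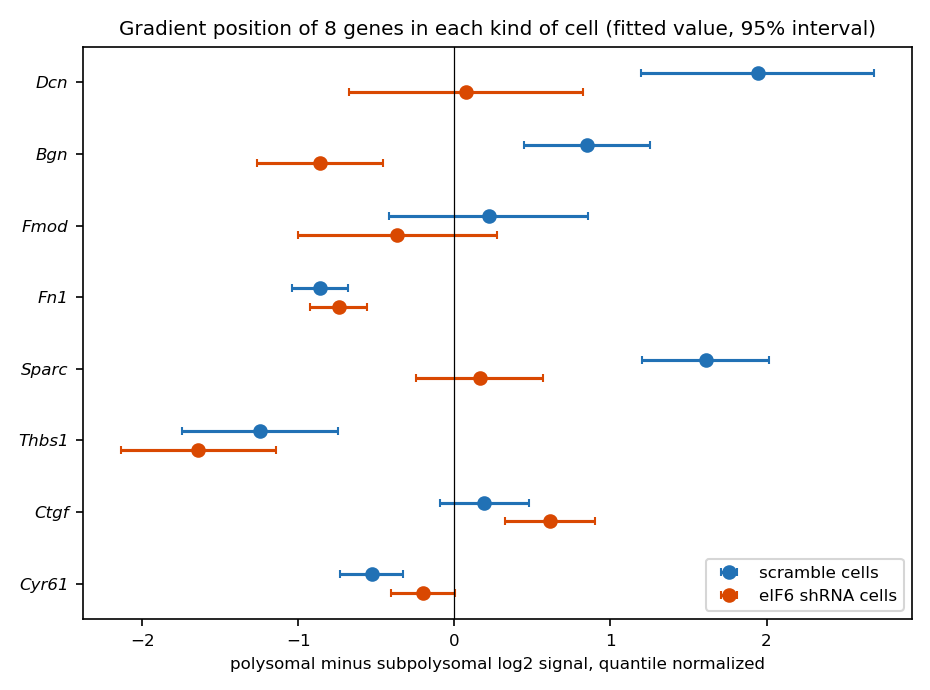
Polysomal minus subpolysomal log2 signal of 8 members in scramble and eIF6 shRNA cells, with 95% intervals from limma. Postn is left out because it was not well above background in 3 of 4 groups. The intervals of Bgn, 0.45 to 1.25 and -1.26 to -0.46, lie on opposite sides of 0, a position that turned to 0.65 in eIF6 shRNA cells with spike-in scaling.

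Likeness between genes was described by Pearson's r over the 16 arrays, which share their groups and normalization. It was 0.957 for Fn1 with Thbs1, 0.861 for Fn1 with Cyr61 and 0.70 for Bgn with Sparc, and -0.51 for Bgn with Ctgf. Among 13333 genes well above background on all arrays, those closest to Thbs1 were Col5a1 (r = 0.989), Ptgs1 (0.986) and Tfpi (0.984). Closest to Fn1 were Flnc (0.983), Mgl2 (0.98) and Klra4 (0.979). Those closest to Sparc were Fam20a (0.964), Ifi27 (0.961) and Pdia5 (0.959), and to Bgn Mmp17 (0.9), Fetub (0.891) and Ddx47 (0.881). Ctgf was closest to Pcmtd2 (0.952), Zfp36l2 (0.946) and Gopc (0.941), and Cyr61 to Cep57 (0.924), Prpf38b (0.923) and Gzf1 (0.906). Dcn, Fmod and Postn were not ranked, as they were not well above background on every array.

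Relatives of the members gave the setting for these changes, where 10.7% of all genes were called lower and 11.1% higher on polysomes. Of 12 other small leucine-rich proteoglycans 6 were tested, and 4 were called lower and 1 higher on polysomes, with a median of -1.64. Podnl1 changed by -1.77 on polysomes and -1.87 in subpolysomes (adjusted p = 4.88e-07 and 4.14e-07), and Podn by -1.73 and -1.11 (adjusted p = 0.000289 and 0.00941, well above background on 1 of 4 eIF6 shRNA subpolysomal arrays). Of 22 other matricellular genes 15 were tested, with 10 lower, 1 higher and a median of -1.03 on polysomes. Fstl1, a follistatin-like relative of Sparc, changed by -2.59 on polysomes, -1.32 in subpolysomes and -1.27 in translational efficiency (adjusted p = 1.45e-09, 1.58e-06 and 0.000927). Ccdc80 changed by -2.42 on polysomes and -2.44 in translational efficiency (adjusted p = 0.000207 and 0.0334), with a second kept probe that was well above background on 4 arrays. In translational efficiency 2 of the 15 matricellular genes were called lower, and 0 of the 6 proteoglycans, beside the 1.11% of all genes.

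Larger proteoglycans and the enzymes that build their chains were counted in the same way, beside 10.7% of all genes lower and 11.1% higher. Of 16 tested large and cell-surface proteoglycans 6 were lower and 1 higher on polysomes, with a median of -0.15. Gpc1, a glypican anchored in the cell membrane, changed by -2.08, and Acan, the aggrecan of cartilage, by -1.996 (adjusted p = 4.25e-09 and 4.65e-05). Of 25 chain synthesis genes other than Ust 7 were lower and 2 higher, with a median of -0.18. Ust, a uronyl sulfotransferase, passed the filter through scramble polysomal RNA alone and was at least 3.86-fold lower on eIF6 shRNA polysomes, and Dse, an epimerase that makes the dermatan sulfate of decorin and biglycan, fell by 1.92 (adjusted p = 0.000179).

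Of 30 tested matrix glycoproteins, leaving out Fbn2 for the same reason, 12 were lower and 3 higher on polysomes, with a median of -0.30. This list and those below stand beside 10.7% of all genes lower and 11.1% higher. The microfibril genes Mfap5 and Fbn1 changed by -2.73 and -2.70 (adjusted p = 1.12e-09 and 9.82e-09). Of 24 receptors of the member proteins other than Itga9 5 were lower and 3 higher, with a median of -0.10. The integrin subunit Itga9 passed the filter in the same way and was at least 2.77-fold lower on eIF6 shRNA polysomes, and Mrc2, a collagen uptake receptor, fell by 1.87 (adjusted p = 4.03e-07). Among 20 YAP and TEAD target genes other than Ctgf and Cyr61, 5 were lower and 6 higher, with a median of 0.047. Rbms3 of that list changed by -2.07 on polysomes and -2.18 in subpolysomes (adjusted p = 2.88e-09 and 3.99e-09), and Ccdc80 is in it too. Ankrd1, a cofactor that is a common readout of YAP, was higher, at 1.46 on polysomes and 1.16 in subpolysomes (adjusted p = 1.12e-07 and 1.77e-06), and is named after its values were seen.

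**Figure D4:**
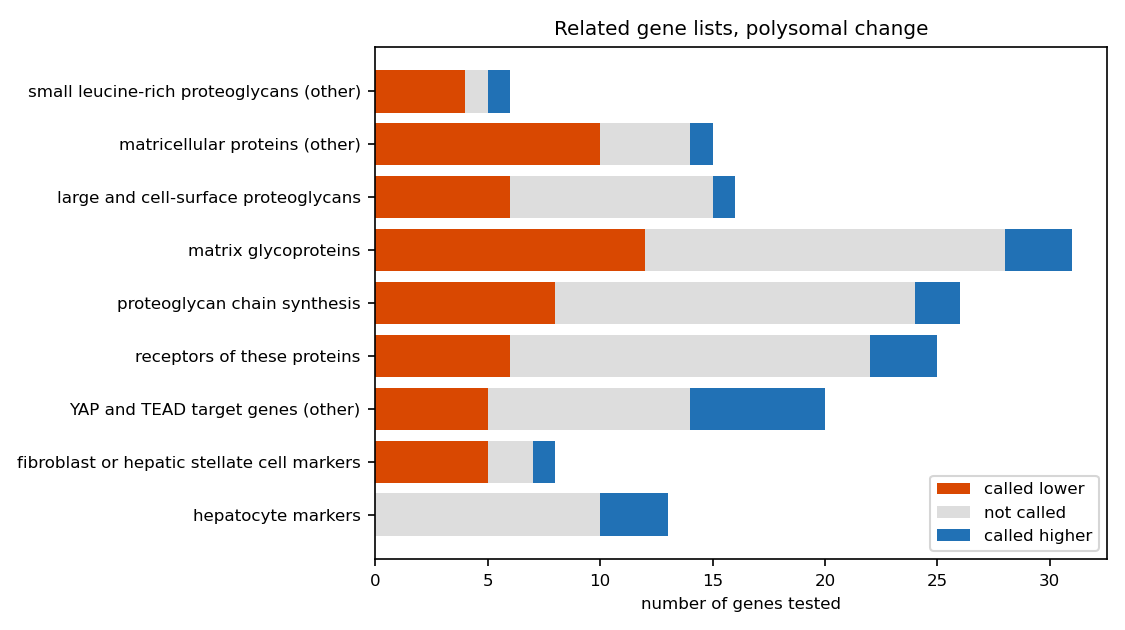
Number of genes called lower, called higher or not called on polysomes of eIF6 shRNA cells (limma, adjusted p under 0.05) in 7 lists related to the members and in the fibroblast and hepatocyte marker lists. The other matricellular genes had 10 of 15 called lower and the hepatocyte markers 0 of 13, beside 10.7% of all genes. The genes seen on scramble polysomes alone, such as Ust and Itga9, are included, as is Pdgfra, seen in scramble cells alone.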

How the data were processed

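For each of 16 arrays the authors deposited the spot intensity that Agilent Feature Extraction gave after its background correction (version 10.7.3.1 in the file headers, 10.7.7.1 in the labels), without normalization across arrays. Also deposited was a log2 table of the same arrays, quantile normalized, which had correlations of 0.9947 to 0.9997 with those intensities and was used as an alternative. Outlier spots were left out and repeated spots averaged. The filter kept a probe if 2 or more arrays of a group had it well above background (25259 probes, 19364 genes). Their log2 intensities were quantile normalized and averaged per gene, and 4 group means were fitted with limma 3.58.1 in R 4.3.3. For genes well above background on no array of a group, folds are bounds. On simulated data of 19337 genes, 90% of changes of 1.5 and 64% of 0.75 (log2) were found on polysomes, and 74% and 39% in translational efficiency. The simulation changed 100 genes of each size, where the data had 2072 genes called lower and 2144 higher on polysomes. These shares therefore do not carry over directly to the data. Precision is limited by the number of arrays, and p-values measure the spread between arrays. Gene names and mm9 coordinates are those of the deposited files. Exon positions of the probes were not analysed here.

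All 10 members, the 3 genes most correlated with each member seen on all arrays, and per related list the 2 called genes with the largest polysomal change are named. Members and lists were chosen with earlier results of these data known. Alternatives were 75th percentile or spike-in scaling (7 probes), normexp with offset 50, other filters, the brightest probe, the authors' table and slide or replicate number in the model. Others were arrays left out, an ordinary t-test with equal variances and, chosen after seeing the data, normalizing each fraction on its own. For translational efficiency the ordinary t-test took ratios by replicate number. The paper names limma and its moderated t-test, as used in the main fit. Figures used matplotlib 3.10.9.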

Additional observations from a re-analysis of the deposited data

Results flagged for a closer look

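In 5 of 36 groups of 4 arrays tested, a single array lay far from the other 3. The value given is the gap to its nearest neighbour as a share of the group's range, tested against Dixon's critical value, and chance gives about 1 group in 20. These were Dcn on subpolysomal array 2 of eIF6 shRNA cells (0.979), Bgn on subpolysomal array 4 of eIF6 shRNA cells (0.909), Fn1 on subpolysomal array 1 of scramble cells (0.91), Thbs1 on polysomal array 3 of scramble cells (0.937) and Ctgf on subpolysomal array 4 of scramble cells (0.857). The first is the array with the most probes well above background of its group. Without replicate 4 of both cells, Bgn was called higher in subpolysomes (0.51, adjusted p = 0.00284 from limma).

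For Bgn and Sparc the eIF6 shRNA effect differed between the fractions in the test of the difference itself, by -1.71 and -1.45 on the log2 scale (polysomal minus subpolysomal change, adjusted p = 0.00383 and 0.0123 from limma). Both calls were lost with spike-in scaling (adjusted p = 0.653 and 1) and when replicate number 1, 2 or 3 was left out. The same held in an ordinary t-test after Benjamini-Hochberg correction (adjusted p = 0.0739 and 0.161).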

How the results depend on the processing

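Counts of members in this section include Postn, which passed the filter through scramble polysomes alone, so its part in them is a description with no test. The 7 polysomal decreases, Postn among them, kept their direction under all alternatives. With Postn counted, 6 to 7 were called. Fmod lost its call with normexp (-0.12, adjusted p = 0.12), no filter (adjusted p = 0.0521) and the ordinary t-test after Benjamini-Hochberg (adjusted p = 0.144), and Fn1 with spike-in scaling. Dcn passed the threshold in translational efficiency with the 75th percentile (adjusted p = 0.0134) and normexp (adjusted p = 0.0379), and Sparc in subpolysomes in the authors' table (adjusted p = 0.0476) and after separate normalization of the fractions (adjusted p = 0.0449). Over leave-outs of replicates, 0 to 4 members were called lower in translational efficiency. The 4, Postn among them, came without subpolysomal array 2 of eIF6 shRNA cells. Called higher in subpolysomes were 0 to 1 members. The subpolysomal change was -0.093 to 0.47 for Dcn, -0.022 to 0.51 for Bgn and -0.88 to 0.023 for Postn. Gradient position in eIF6 shRNA cells was -0.19 to 0.48 for Dcn, -0.13 to 0.30 for Sparc and -0.58 to 0.012 for Fmod.

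With the 75th percentile, which moved the median gene's position by -0.37 in scramble and -0.40 in eIF6 shRNA cells, 8 members were called lower and 0 higher in position in eIF6 shRNA cells, beside 46.0% and 20.6% of all genes. Position turned to -0.40 (Ctgf) and -0.61 (Fmod) in scramble cells and to -0.24 (Ctgf), -0.79 (Dcn) and -0.61 (Sparc) in eIF6 shRNA cells, and subpolysomal Ctgf to 0.084.

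With spike-in scaling, which moved the median gene by -0.49 on polysomes, -0.25 in subpolysomes, -0.23 in translational efficiency and 1.49 and 1.27 in position, 1 member was called lower in subpolysomes and 0 in translational efficiency. In position, 0 were lower and 8 higher in scramble cells, and 0 lower and 2 higher in eIF6 shRNA cells, where 69.3% and 58.0% of all genes were higher. Values that turned were polysomal Ctgf (-0.21), subpolysomal Bgn (-0.14) and Dcn (-0.13), translational efficiency of Ctgf (-0.030) and Fn1 (-0.085), position in scramble cells of Cyr61 (1.35), Fn1 (1.08) and Thbs1 (0.71), and in eIF6 shRNA cells of Bgn (0.65), Cyr61 (1.44), Fmod (0.36) and Fn1 (0.995). Fmod there was also 0.0096 with normexp, 0.059 with no filter and 0.056 in the authors' table. The cause was not tested.

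Without adjustment, the ordinary t-test called 5 members lower in subpolysomes, beside 19.0% of all genes. In translational efficiency it called 4 lower, Postn among them, and 1 higher, beside 6.66% and 4.61% of all genes. After Benjamini-Hochberg it called 0 in translational efficiency (68 of all genes lower, against 214 with limma). Over all genes, limma called 408 lower in translational efficiency with the 75th percentile, 390 with normexp, 142 with no filter and 31 with spike-in scaling. With spike-in scaling it called 1056 lower on polysomes and 345 in subpolysomes, against 2072 and 2390.

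Deviations of arrays with the same replicate number had correlations of -0.211 to 0.412 over all pairs of groups. Only the 2 fractions of the same cells could share a gradient. Between these the correlations were -0.157 to -0.0034 in scramble and -0.036 to 0.030 in eIF6 shRNA cells. The same number gave the best match for 0 of 4 arrays in each kind of cell. These values show no pairing by number, and a shared gradient was not tested in any other way. With the replicate number as a block, 7 members were called lower on polysomes (Postn among them), 3 in subpolysomes and 2 in translational efficiency. In position, 3 were called lower in scramble and 4 in eIF6 shRNA cells (Postn among the 4). In the same order, 2003, 2310, 219, 5501 and 5541 of all 19364 genes tested were called lower. In a two-sided exact permutation test of the polysomal to subpolysomal ratios by number (4 against 4), Dcn, Bgn and Sparc had p = 0.0286, the smallest that design can give, and the other 5 members apart from Postn had p from 0.0857 to 0.257. Dim signal limited Lum, Postn and Fmod.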
